A study of Mus musculus with 6 samples.

Results

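The genes described here encode the respiratory chain and the ATP synthase of mitochondria, together with cytochrome c and a few factors that assemble complex I. They were chosen by symbol from the genes listed in an RNA-seq table of mouse podocyte lines: every symbol that starts with Nduf, Uqcr, Cox4, Cox5, Cox6, Cox7, Cox8, Atp5 or mt-, and the symbols Sdha, Sdhb, Sdhc, Sdhd, Cyc1 and Cycs. This gave 96 of 12803 listed genes, of which 89 lie in the nuclear genome and 7 in the mitochondrial genome. The KO group consisted of 3 libraries from a kidney line, derived from podocytes, whose genotype is labelled Myosin 1e KO. The WT group consisted of 3 libraries from the murine podocyte line of Mundel. No treatment is named for either. The study concerns MYO1E, mutated in a steroid-resistant form of nephrotic syndrome. A heterozygous genotype is part of its design and was not analysed here. Only 1 line stood for each genotype, so the effect of the genotype and other differences between the lines cannot be told apart. The replicates are called biological without further detail, and p-values measure the spread between these libraries.

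Complexes I and II pass electrons from NADH and from succinate to ubiquinone, complex III passes them on to cytochrome c, and complex IV passes them to oxygen. Complexes I, III and IV pump protons across the inner mitochondrial membrane, and the ATP synthase, complex V, lets them flow back to make ATP. All of these complexes but complex II combine subunits from both genomes: the mitochondrial DNA encodes a few core membrane subunits and the nucleus encodes the rest, which are imported. In podocytes both respiration and glycolysis are known to supply ATP, and inherited defects of mitochondrial proteins can present as podocyte disease.

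The listed genes held 35447096 to 41360689 reads in the KO libraries and 35763961 to 42106461 reads in the WT libraries. Myo1e itself averaged 17.3 ± 1.4 CPM (reads scaled to library size; SD, n = 3) in the KO line, against 177 ± 8.41 CPM in the WT line. The podocyte markers Nphs1 and Ptpro were not among the genes analysed here, and 7 listed podocyte markers summed to 621 to 830.2 CPM in the KO line, against 1169 to 1389 CPM in the WT line. The 7 listed of 12 tubular epithelial markers summed to 4153 to 4640 CPM in the KO line, against 1560 to 2443 CPM in the WT line. Their members went opposite ways: Epcam and the keratins Krt8, Krt18 and Krt19 rose, and Lrp2, Aqp1 and Cdh16 fell. The 5 listed of 7 mesenchymal markers summed to 331 to 659 CPM in the KO line, against 4680 to 4852 CPM in the WT line. None of 5 endothelial markers was listed, and of 5 leukocyte markers only Cd68 was, at 2.04 to 2.57 CPM in the KO line, against 1.94 to 3.44 CPM in the WT line. The part of these differences in the results below was not tested.

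KO replicate 3 stood apart from the other KO libraries in these genes. It was the highest KO library in 87 of the 89 nuclear members (97.8%), against 38.8% of all genes tested. On the log2 scale it lay above the mean of KO replicates 1 and 2 by a median of 0.32 over the tested nuclear members and of 0.00 over all genes. This shift went with transcript length: its Spearman correlation with length was -0.50 over the 88 tested nuclear members and -0.45 over 12477 genes, where all points share the same libraries. The nuclear members are short, with a median transcript of 752 bases against 2739 bases for all genes tested. Genes of 500 to 1000 bases had a median shift of 0.20 and genes over 4000 bases one of -0.14. Nuclear members of 500 to 1000 bases had a larger one, 0.36. At 1000 to 2000 bases the median shift was 0.27 in nuclear members and 0.12 in all genes tested. The cause of the shift was not tested. Counts and sums by complex are therefore also given without KO replicate 3. The KO-minus-WT log2 fold change itself had a Spearman correlation with length of -0.15 over the nuclear members and -0.04 over all genes. At 500 to 1000 bases its median was 0.13 over all genes tested, of which 36.7% rose and 26.9% fell. The 40 nuclear members of that length had a median of 0.29, with 47.5% higher and 5% lower. Up to 500 bases the medians were -0.04 for all genes and 0.33 for nuclear members, and at 1000 to 2000 bases 0.06 and 0.22. Among the WT libraries, replicate 1 was the highest in 62 of the 89 nuclear members (69.7%), against 41.7% of all genes tested. Without WT replicate 3, 27 nuclear members were higher (4120 of 12616 genes tested). Without KO replicate 3 there were 31 (4128 of 12616 genes tested).

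**Figure D1:**
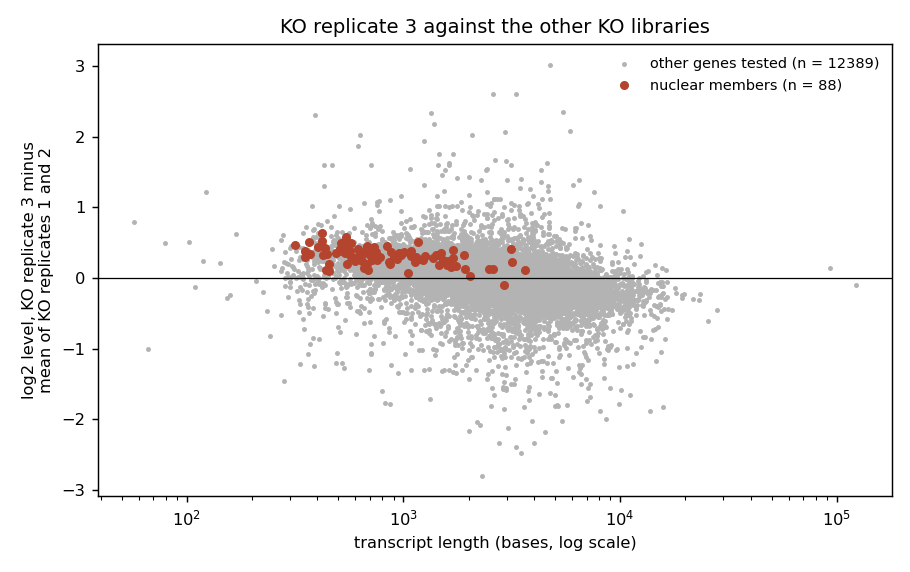
Difference in log2 level between KO replicate 3 and the mean of KO replicates 1 and 2 (vertical axis) against transcript length in bases (horizontal axis, log scale), for each gene tested. Red points are the 88 tested nuclear members, with a median difference of 0.32; grey points are the other genes tested, and the median over all genes was 0.00.

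The nuclear genes of the respiratory chain leaned to higher levels in the KO line by a modest amount, while of the mitochondrial genes only mt-Nd6 passed the test, as lower. Of the 95 members tested, 36 rose (37.9%, against 34.3% of all genes tested), 6 fell (6.32%, against 33.8% of all genes) and 53 did not pass (limma, adjusted p under 0.05). In both directions together 44.2% of members were called, against 68.1% of all genes. These shares were not tested against each other, and that of risers is near the background. All 36 that rose were nuclear. The median log2 fold change, KO minus WT, was 0.24 over 88 nuclear members, 73 of them positive and 15 negative, and -0.07 over the 7 mitochondrial members, beside 0.01 over all genes tested. The extremes among tested nuclear members were Uqcrq at 1.26 and Ndufb8 at -0.78. Without KO replicate 3 the nuclear median was 0.14, with 31 of 88 members higher (32.7% of all genes tested) and 8 lower (32.8% of all genes); 31 of the 36 and all 5 of the nuclear members that fell kept their calls. The mitochondrial median was then 0.01, with 4 members positive and 3 negative, 1 of them called higher and 1 lower. In 50 members every KO library lay above every WT library (37.2% of all genes tested did so), and in 7 every KO library lay below every WT library (36.4% of all genes).

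**Figure D2:**
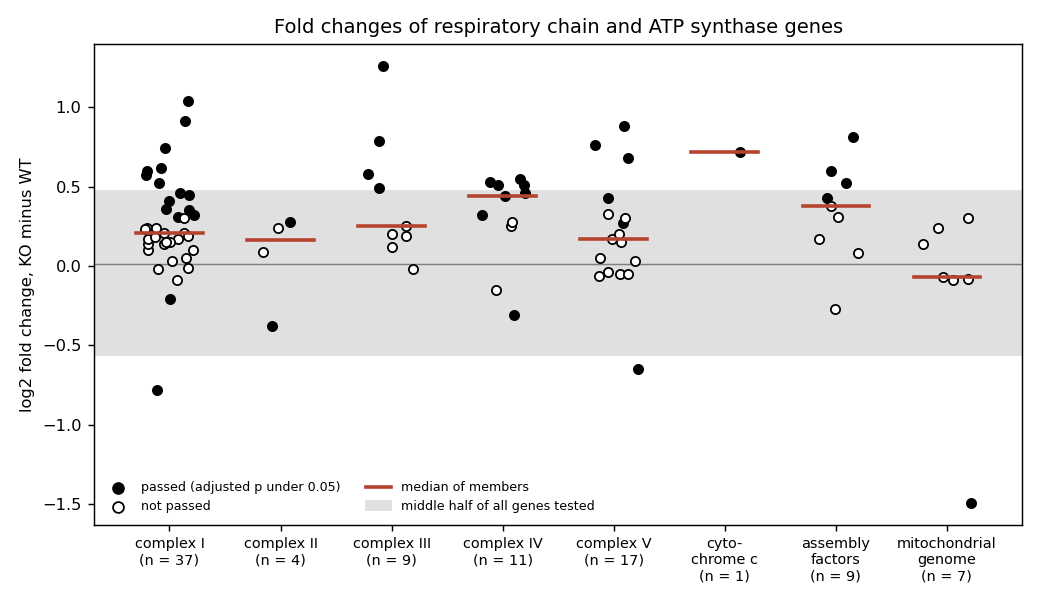
Log2 fold change, KO minus WT, of each tested member (vertical axis), grouped by complex, with nuclear and mitochondrial genes apart. Filled points are genes that passed and open points genes that did not, red bars are the medians of members, and the grey band with its line spans the middle 50% and the median of all genes tested. Most nuclear points lie above 0 in each complex and among the assembly factors, and the lowest point of all is the mitochondrial gene mt-Nd6 at -1.49.

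Summed over genes, the nuclear members reached 8401, 8134 and 9933 CPM in the KO libraries, against 7821, 7521 and 7125 CPM in the WT libraries, a ratio of means of 1.18 that was 1.1 without KO replicate 3. The groups did not overlap. Complex III had the highest ratio of the complexes, with 887, 859.7 and 1096 CPM in the KO libraries, against 708, 698 and 655 CPM in the WT libraries (ratio 1.38, or 1.27 without KO replicate 3). Complex IV had a ratio of 1.25 (1.16), complex I of 1.17 (1.09) and complex V of 1.13 (1.07), the values in brackets again without that library. Complex II stood at 468, 446 and 500.1 CPM in the KO libraries, against 517, 485 and 452 CPM in the WT libraries, with overlap between the groups (ratio 0.972, or 0.942 without KO replicate 3). These sums count reads per gene without regard to transcript length.

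**Figure D3:**
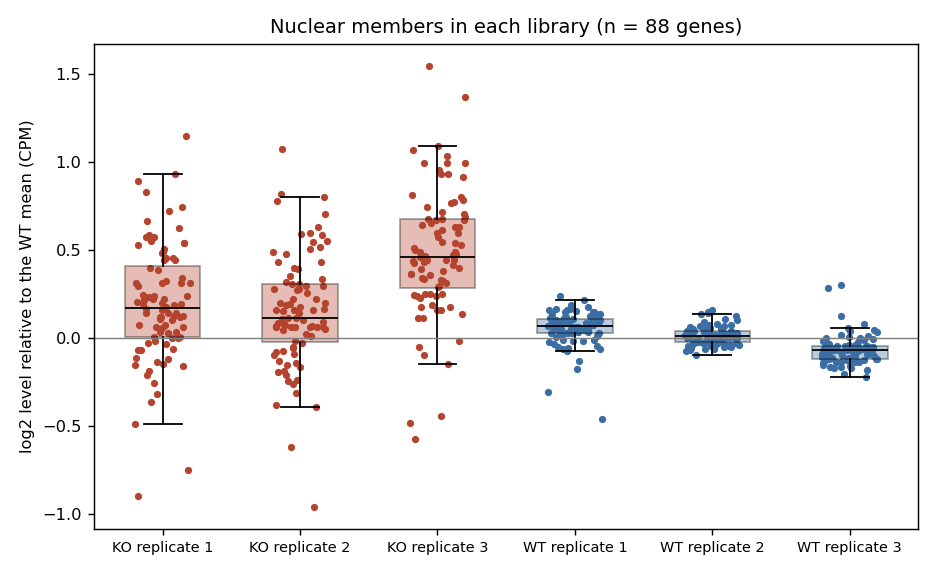
Log2 level of each of the 88 tested nuclear members relative to its WT mean (vertical axis) by library, KO libraries left of WT libraries. Points are genes, and boxes give the median and the quartiles, with whiskers to 1.5 times the box height. The medians are 0.17, 0.11 and 0.46 in the KO libraries, KO replicate 3 being the highest, against 0.07, 0.01 and -0.07 in the WT libraries.

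Complex I, the NADH dehydrogenase, takes electrons from NADH and is the largest of the complexes. Of its 37 nuclear genes 14 rose (37.8%, near the 34.3% of all genes tested) and 2 fell (5.41%, against 33.8% of all genes). The median log2 fold change was 0.21. The 14 were all among the 30 accessory subunits, which surround the catalytic core (median 0.27). GENCODE M21 types 1 of the 14, Ndufb1-ps, as a non-coding RNA, and its log2 fold change of 0.36 (limma adjusted p = 0.026) was 0.22 without KO replicate 3 (adjusted p = 0.032). Its call was lost without WT replicate 2 (0.064) or WT replicate 3 (0.061). None of the 7 nuclear core subunits rose (median 0.10, 1 fell). Accessory transcripts had a median of 682 bases and core transcripts one of 1623 bases, and without KO replicate 3 the 37 genes held 13 that were higher and 3 that were lower (median 0.14). By name, the Ndufa genes rose most often, 9 of 13 (69.2%) with none lower (median 0.46), against 3 of 11 Ndufb genes (27.3%, median 0.17). The 13 and the 9 include Ndufa4, which is a subunit of complex IV and is counted there below. Whether these subgroups differ was not tested.

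Ndufs6, an accessory subunit near the electron-input arm that is needed for a late step of complex I assembly, was at 38.9, 36 and 52.8 CPM in the KO libraries, against 20.2, 22.6 and 18.6 CPM in the WT libraries. Each KO library lay above each WT library, and the log2 fold change was 1.04 (SE 0.15, limma adjusted p = 0.00037). Ndufa6, an accessory subunit of the LYR motif family, had 131, 129 and 157 CPM in the KO libraries, against 83.5, 74 and 65.2 CPM in the WT libraries (0.91, SE 0.12, adjusted p = 0.00016). Ndufa7, another accessory subunit, averaged 109 ± 17.7 CPM in the KO line, against 65 ± 5.24 CPM in the WT line (0.74, adjusted p = 0.0007). In neither gene did the groups overlap. The other risers of the complex lay at log2 fold changes of 0.31 to 0.62, the lowest being Ndufb3 and the highest Ndufs5. The call of Ndufb3 (adjusted p = 0.028) was lost without KO replicate 3 (0.064), WT replicate 2 (0.08) or WT replicate 3 (0.076). Ndufs5 and Ndufa12 each have a near-identical copy elsewhere in the genome, so their reads may be split with it.

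Ndufb8, an accessory subunit of the membrane arm whose protein is often used as a readout of assembled complex I, went the other way. It had 80.9, 77.6 and 108 CPM in the KO libraries, against 161, 146 and 146 CPM in the WT libraries. The groups were well apart, and the log2 fold change was -0.78 (SE 0.13, limma adjusted p = 0.00066). The core subunit Ndufv1, which carries the NADH-binding flavin, had 106, 105 and 118 CPM in the KO libraries, against 128, 130.1 and 122 CPM in the WT libraries. Its small difference of -0.21 passed narrowly (adjusted p = 0.04) and did not pass without KO replicate 1 (0.13), KO replicate 2 (0.11), WT replicate 1 (0.08) or WT replicate 2 (0.14). Closest to 0 were the core subunit Ndufs7, at 32.8 ± 3.59 CPM in the KO line, against 33.1 ± 3.4 CPM in the WT line, and the accessory subunit Ndufb11, at 53.4 ± 6.64 CPM in the KO line, against 54.1 ± 3.72 CPM in the WT line.

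The rule also took in 8 complex I assembly factors and Cox7a2l, which helps to join complexes III and IV into supercomplexes. Of these 9 genes 4 rose (44.4%, against 34.3% of all genes tested) and none fell (33.8% of all genes did), with a median of 0.38. Without KO replicate 3 there were 3 higher and 1 lower (median 0.25). Ndufaf1, a chaperone of the membrane arm, had 26.3, 27.3 and 30.4 CPM in the KO libraries, against 16.6, 15.9 and 15.3 CPM in the WT libraries, with no overlap (0.81, SE 0.10, limma adjusted p = 0.00013). Ndufaf4 (0.60, adjusted p = 0.007) and Ndufaf7 (0.52, adjusted p = 0.0057), a methyltransferase for a core subunit, also rose. Ndufaf5 passed narrowly (0.43, adjusted p = 0.049) but lost its call without KO replicate 3 (0.26, adjusted p = 0.13) and also without KO replicate 1 (0.064), WT replicate 2 (0.11) or WT replicate 3 (0.12), while Ndufaf2, at -0.27 with all libraries (adjusted p = 0.068), was among the lower calls without it. Cox7a2l was at 63.7 ± 6.2 CPM in the KO line, against 56.6 ± 4.38 CPM in the WT line, short of the threshold (0.17, adjusted p = 0.15).

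Complex II, succinate dehydrogenase, belongs both to the respiratory chain and to the citric acid cycle, and its subunits moved in different directions. Sdha, the flavoprotein that oxidises succinate, had 179, 171 and 164 CPM in the KO libraries, against 247, 219 and 206 CPM in the WT libraries. Every KO library was lower than every WT library (log2 fold change -0.38, SE 0.09, limma adjusted p = 0.0046). Sdhd, a membrane anchor, averaged 105 ± 11.3 CPM in the KO line, against 86.4 ± 4.67 CPM in the WT line (0.28, adjusted p = 0.025), a call lost without KO replicate 3 (adjusted p = 0.053) and without WT replicate 3 (adjusted p = 0.077). The iron-sulphur subunit Sdhb had a log2 fold change of 0.24 (adjusted p = 0.053), which passed without KO replicate 2 (adjusted p = 0.048), and the other anchor, Sdhc, one of 0.09 (adjusted p = 0.42). Sdha is thus the subunit that fell, next to 3 partners with positive log2 fold changes of which 1 passed. Without KO replicate 3 none of the 4 was called higher and Sdha alone lower.

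Complex III, the cytochrome bc1 complex, held the tested member with the largest rise. Of its 9 nuclear genes 4 rose (44.4%, against 34.3% of all genes tested) and none fell (33.8% of all genes did), with a median of 0.25. All 4 were among the accessory subunits, which carry no redox centre. Without KO replicate 3 there were again 4 higher and 0 lower, with a median of 0.14. Uqcrq, a small subunit that binds next to cytochrome b, had 153, 145 and 201 CPM in the KO libraries, against 74.1, 65.7 and 66.4 CPM in the WT libraries. The lowest KO library lay far above the highest WT library, and the log2 fold change was 1.26 (SE 0.13, limma adjusted p = 3.8e-05). Uqcr10 had 85.8, 83.8 and 114 CPM in the KO libraries, against 57.3, 53.4 and 51.6 CPM in the WT libraries (0.79, SE 0.12, adjusted p = 0.00049). Uqcr11 (0.58) and the large matrix-side subunit Uqcrc1 (0.49) rose as well. The catalytic subunits moved less: Cyc1, cytochrome c1, averaged 119 ± 12.7 CPM in the KO line, against 104 ± 6.42 CPM in the WT line (0.19, adjusted p = 0.1), and the Rieske protein Uqcrfs1 78.6 ± 9.37 CPM in the KO line, against 71.9 ± 1.05 CPM in the WT line (0.12, adjusted p = 0.28).

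Cycs, the cytochrome c that shuttles electrons from complex III to complex IV, had 26.4, 26.6 and 35.2 CPM in the KO libraries, against 16.1, 18.6 and 18.3 CPM in the WT libraries. It rose with no overlap between the groups (0.72, SE 0.13, limma adjusted p = 0.0015).

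Complex IV, cytochrome c oxidase, had the largest share of risers of the complexes. Of 11 nuclear genes tested 7 rose (63.6%, against 34.3% of all genes tested) and 1 fell (9.09%, against 33.8% of all genes). The median, 0.44, was the highest of the complexes. Without KO replicate 3, 6 were higher and 1 lower (median 0.32). The risers held a narrow range, from Cox4i1 at 0.32 to Cox6a1 at 0.55. Cox5b, which binds zinc, had 92.6, 89.2 and 104 CPM in the KO libraries, against 68.6, 63.7 and 66.1 CPM in the WT libraries (0.53, SE 0.08, adjusted p = 0.00055). Cox5a had 153, 129 and 165 CPM in the KO libraries, against 98.7, 103 and 110.0 CPM in the WT libraries (0.51, adjusted p = 0.002). In both genes the groups were separate. Cox6a1 (adjusted p = 0.0027), Cox6b1 (0.51, adjusted p = 0.0064), Ndufa4, first taken for a complex I subunit (0.46, adjusted p = 0.0024), and Cox7b (0.44, adjusted p = 0.0076) were the others. The call of Cox4i1, a subunit that binds ATP (adjusted p = 0.034), was lost without KO replicate 3 (0.20, adjusted p = 0.054), WT replicate 2 (adjusted p = 0.098) or WT replicate 3 (adjusted p = 0.083).

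Cox6c was the lone member of complex IV that fell, at 81.5, 87.1 and 110.2 CPM in the KO libraries, against 118, 115 and 109.8 CPM in the WT libraries. KO replicate 3 lay inside the WT range, and the call (-0.31, SE 0.11, limma adjusted p = 0.038) was lost when any library but KO replicate 3 was left out (adjusted p = 0.053 to 0.14). Cox8a was at 162 ± 13.4 CPM in the KO line, against 179.7 ± 15.5 CPM in the WT line (-0.15, adjusted p = 0.19), and Cox7a2 at 95.1 ± 14.5 CPM in the KO line, against 79.7 ± 4.37 CPM in the WT line (0.25, adjusted p = 0.081, and 0.04 without KO replicate 2).

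Several complex IV subunits come as pairs of a common form and a form of heart and skeletal muscle. The muscle form Cox7a1 was the 1 member too low to be tested. It was at 1.23, 0.828 and 1.49 CPM in the KO libraries, against 0.187, 0.103 and 0.0565 CPM in the WT libraries, from 135 reads in the KO line, against 14 in the WT line. Every KO library lay above every WT library. The gene is listed through its KO libraries alone, so no test of it is given. Per length, it stayed far below the common form: Cox7a1 had 2.54, 1.71 and 3.06 CPM per kilobase in the KO libraries, where Cox7a2 had 136, 128 and 169. Cox4i2, Cox6a2, Cox6b2, Cox7b2, Cox8b, Cox8c and Ndufa4l2 were not among the genes analysed here.

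Complex V, the ATP synthase, had 5 of 17 genes that rose (29.4%, near the 34.3% of all genes tested) and 1 that fell, with a median of 0.17. Without KO replicate 3 it had 4 higher and 2 lower, with a median of 0.09. Atp5d, the delta subunit of the central stalk, had 183, 165 and 209 CPM in the KO libraries, against 118, 108 and 101 CPM in the WT libraries (0.76, SE 0.10, limma adjusted p = 0.00023). Atp5h, a subunit of the peripheral stalk, had 111, 109 and 141 CPM in the KO libraries, against 76.8, 74.4 and 72.3 CPM in the WT libraries (0.68, SE 0.11, adjusted p = 0.00051), although 4 other genes carry near-identical sequence. The groups did not overlap in either gene. The subunits that form the catalytic hexamer were close to level. Atp5a1, the alpha subunit, averaged 676 ± 34.9 CPM in the KO line, against 652 ± 34.1 CPM in the WT line (0.05, adjusted p = 0.62), and Atp5b, the beta subunit, 925 ± 48.5 CPM in the KO line, against 823 ± 32.5 CPM in the WT line (0.17, adjusted p = 0.14). Atp5mpl passed narrowly (0.43, adjusted p = 0.039) but lost its call without KO replicate 3 (0.27, adjusted p = 0.11) and also without KO replicate 1 (0.054), WT replicate 2 (0.064) or WT replicate 3 (0.12). Closest to 0 were the stalk subunit Atp5j (-0.04, adjusted p = 0.8) and Atp5md (0.03, adjusted p = 0.82).

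The c-ring, which turns as protons pass, is built from 1 protein that 3 genes encode. They differ in the import signal that is removed in the mitochondrion, so the mature c subunit is the same. These genes moved in different directions. Atp5g1 had 54.5, 47.8 and 60.3 CPM in the KO libraries, against 29.4, 30.2 and 28.5 CPM in the WT libraries (0.88, SE 0.10, limma adjusted p = 8.4e-05). Atp5g2 had 10.9, 11.9 and 12.3 CPM in the KO libraries, against 19.6, 18.4 and 16.9 CPM in the WT libraries (-0.65, SE 0.11, adjusted p = 0.00091). Neither gene had overlapping groups, and both kept their calls in all settings tried. Atp5g3, the most abundant of them, averaged 199 ± 21.3 CPM in the KO line, against 164 ± 2.99 CPM in the WT line (0.27, adjusted p = 0.023), a call lost without WT replicate 1, 2 or 3 (adjusted p = 0.05, 0.056 and 0.058).

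Per transcript length, Atp5g1 gave 22.9 ± 1.12% of the summed c-subunit transcripts in the KO line, against 15.3 ± 0.104% in the WT line. Atp5g2 gave 6.7 ± 0.55% in the KO line, against 12.9 ± 0.79% in the WT line. The share of Atp5g3 was 70.4 ± 0.802% in the KO line, against 71.7 ± 0.804% in the WT line. The 3 genes together came to 397 ± 40.3 CPM per kilobase in the KO line, against 321 ± 7.11 in the WT line. Atp5g1 has 1 near-identical copy and Atp5g2 has 2, so these levels may include reads of those copies.

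**Figure D4:**
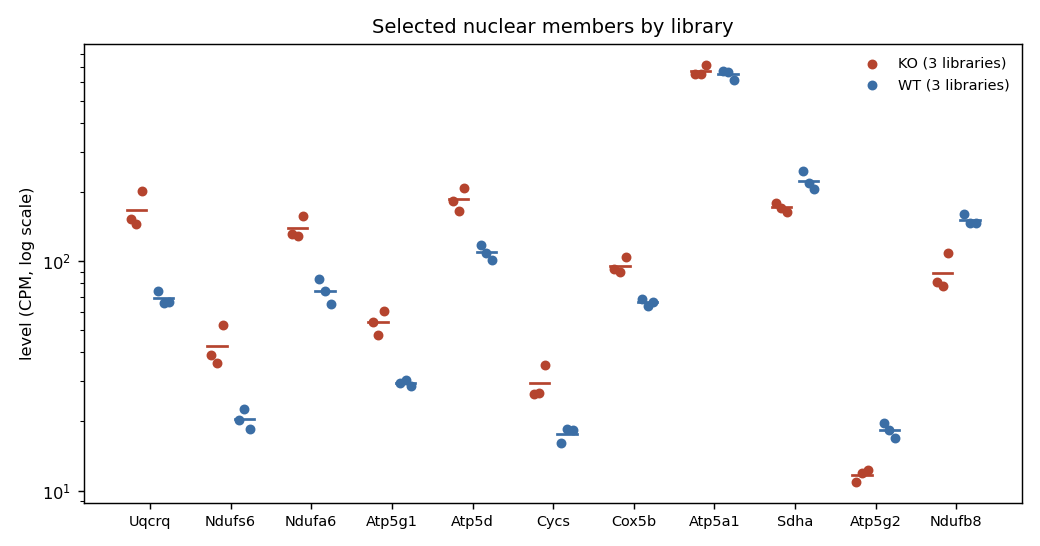
Level in CPM (log scale) of selected nuclear members in each library, KO left of WT for each gene; points are libraries and bars are the group means. Uqcrq, Ndufs6, Ndufa6, Atp5g1, Atp5d, Cycs and Cox5b lie higher in the KO line without overlap, Sdha, Atp5g2 and Ndufb8 lie lower without overlap, and the groups of Atp5a1 overlap.

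The promoters of nuclear respiratory genes are known for sites of NRF1, of ETS factors such as GABPA and of YY1. Windows from 250 bases before to 50 bases after the transcript start (RefSeq, GRCm38.p6) were at hand for 74 of the 89 nuclear members and were searched on both strands. The NRF1 letters, GCGCA and GCGC with any 1 base between them, occurred in 25.7% of these members and in 11.7% of 9900 genes tested with such a window. The ETS letters CCGGAAG occurred in 25.7% of members against 20.4% of those genes, and the YY1 letters AAGATGGC in 14.9% against 5.25%. Matches of different motifs overlapped in 0 members. Among members that rose, 12 of 32 held the NRF1 letters (37.5%), against 5 of the 38 that did not pass or were not tested (13.2%) and 2 of the 4 that fell. The other letters went the other way: the ETS letters were in 21.9% of members that rose against 31.6% of those 38, the YY1 letters in 6.25% against 21.1%, and any of the 3 in 53.1% against 57.9%. No test was made of these shares, and a match is a run of letters, not a site shown to be bound.

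Upstream stretches of 4 members, picked after their values were seen, 3 that rose and 1 that fell, are shown as examples of upstream sequence with and without such letters. Each is read 5′ to 3′ on the minus strand of GRCm38.p6, and bases that any annotated exon covers were left out. Capitals mark a match. The stretch of Uqcr10 (chr11:4704345-4704594), which rose by 0.79, holds none of the letters searched.
Uqcr10: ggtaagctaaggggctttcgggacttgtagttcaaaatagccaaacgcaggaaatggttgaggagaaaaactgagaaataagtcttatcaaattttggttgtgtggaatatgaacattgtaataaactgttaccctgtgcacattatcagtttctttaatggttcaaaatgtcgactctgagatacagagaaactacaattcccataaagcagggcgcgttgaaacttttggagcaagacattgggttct
The stretch of Atp5h (chr11:115419963-115420127), which rose by 0.68, holds the NRF1 letters; its window also holds the ETS letters, 38 bases before the start in a part that an exon covers.
Atp5h: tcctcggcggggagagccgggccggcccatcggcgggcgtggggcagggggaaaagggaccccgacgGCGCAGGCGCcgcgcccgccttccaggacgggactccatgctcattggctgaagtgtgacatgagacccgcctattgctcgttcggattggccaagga
The stretch of Ndufaf1 (chr2:119662835-119663084), which rose by 0.81, holds the ETS letters.
Ndufaf1: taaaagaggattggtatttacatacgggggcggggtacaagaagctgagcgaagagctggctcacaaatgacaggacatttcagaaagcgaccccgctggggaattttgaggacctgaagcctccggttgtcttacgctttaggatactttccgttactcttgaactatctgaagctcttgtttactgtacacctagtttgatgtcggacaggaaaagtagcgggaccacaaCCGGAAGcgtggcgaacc
The stretch of Ndufb8 (chr19:44555443-44555692), which fell by 0.78 on the log2 scale, holds none before the start, although its searched window holds the YY1 letters 38 bases after it.
Ndufb8: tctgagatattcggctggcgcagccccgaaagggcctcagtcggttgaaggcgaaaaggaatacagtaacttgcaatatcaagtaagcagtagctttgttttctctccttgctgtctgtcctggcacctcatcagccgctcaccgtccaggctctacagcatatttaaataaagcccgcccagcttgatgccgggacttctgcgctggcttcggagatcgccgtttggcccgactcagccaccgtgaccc

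The mitochondrial genome encodes core subunits of complexes I, III, IV and V. Only 7 of its genes were analysed here, 5 of complex I, 1 of complex III and 1 of complex IV. No gene of complex V was among them, so the sums below do not cover the whole mitochondrial genome. Together the 7 stood at 8149, 8527 and 8332 CPM in the KO libraries, against 7718, 8102 and 8205 CPM in the WT libraries, with overlap between the groups (ratio of means 1.04, with or without KO replicate 3). Their sum over that of the nuclear members was 0.97, 1.05 and 0.839 in the KO libraries, against 0.987, 1.08 and 1.15 in the WT libraries, which also overlapped. The libraries were made from mRNA by a kit that selects it by its poly(A) tail, and mitochondrial transcripts carry short tails or none, so these levels depend on that selection as well as on abundance.

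Of the 7, only mt-Nd6 passed the test. The complex IV core subunit mt-Co1, the most abundant, had 2551, 2923 and 3164 CPM in the KO libraries, against 2441, 2691 and 2692 CPM in the WT libraries (0.14, limma adjusted p = 0.41). The cytochrome b gene mt-Cytb had 1357, 1481 and 1460 CPM in the KO libraries, against 1464, 1553 and 1499 CPM in the WT libraries (-0.07, adjusted p = 0.56). The complex I core subunits mt-Nd1 (-0.09, adjusted p = 0.55) and mt-Nd5 (-0.08, adjusted p = 0.47) were likewise close to 0. mt-Nd4 had 792, 839 and 824 CPM in the KO libraries, against 621, 708 and 756 CPM in the WT libraries, apart but not past the threshold (0.24, adjusted p = 0.065, and 0.046 without WT replicate 3). mt-Nd2 had 898, 829 and 645 CPM in the KO libraries, against 630.1, 610.3 and 669 CPM in the WT libraries (0.30, adjusted p = 0.072). In mt-Nd2 KO replicate 3 fell among the WT libraries, and without it the gene passed as higher in the KO line (adjusted p = 0.005).

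mt-Nd6, a membrane core subunit of complex I, had 7.06, 6.99 and 3.05 CPM in the KO libraries, against 18.4, 15.7 and 11.7 CPM in the WT libraries. The groups did not overlap, the log2 fold change was -1.49 (SE 0.33, limma adjusted p = 0.0036), and KO replicate 3 was the lowest library (-1.09 without it, adjusted p = 0.0032). It is the tested member with the largest fall. Among the mitochondrial members it is the one encoded on the minus strand (chrM:13552-14070 in GRCm38, GENCODE M21), and its last bases as listed overlap the end of mt-Nd5 (chrM:11742-13565), which runs on the plus strand. As a share of mt-Nd5 its level was 0.587%, 0.586% and 0.258% in the KO libraries, against 1.51%, 1.24% and 0.897% in the WT libraries. The library kit keeps the strand, but the strand setting of the counting is not given in the sources used here, and reads of overlapping genes on opposite strands cannot be told apart without it.

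**Figure D5:**
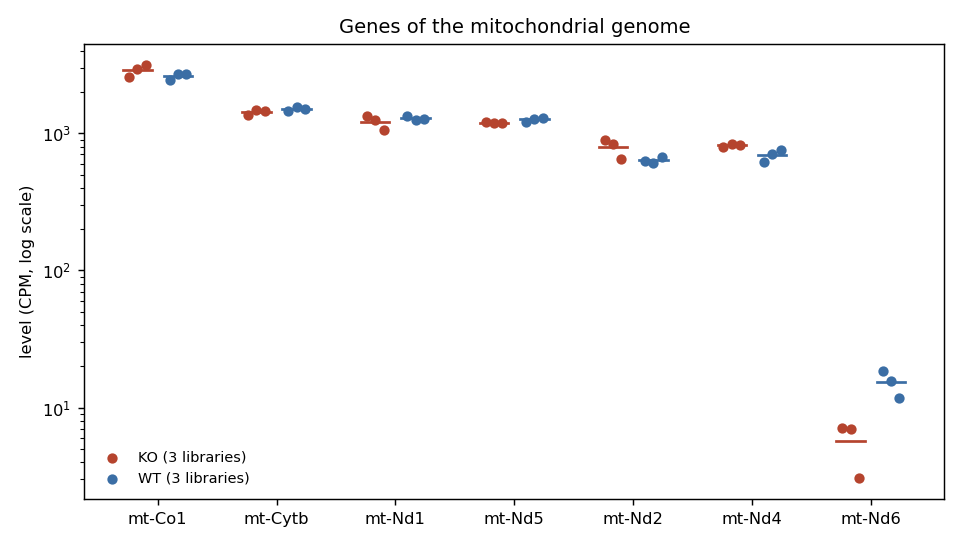
Level in CPM (log scale) of the 7 mitochondrial members in each library, KO left of WT for each gene. The other genes lie between 610.3 and 3164 CPM, and mt-Nd6 lies between 3.05 and 7.06 CPM in the KO line and between 11.7 and 18.4 CPM in the WT line.

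Genes around the respiratory chain that the symbols above do not take in were counted as well. Of 50 further assembly factors 19 rose (38%) and 11 fell (22%), with a median of 0.19. The shares over all genes tested were 34.3% and 33.8%, and no list was tested against them. Lyrm7, which helps to insert the Rieske protein into complex III, averaged 6.29 ± 0.526 CPM in the KO line, against 2.02 ± 0.484 CPM in the WT line (1.65, limma adjusted p = 0.00013). Tmem70, an assembly factor of the ATP synthase, averaged 93.8 ± 13 CPM in the KO line, against 32.4 ± 3.52 CPM in the WT line (1.53, adjusted p = 9.4e-06). Cmc2, a complex IV factor, fell (-1.13), as did the complex III factor Uqcc3 (-0.77). Of 27 genes that maintain or express mitochondrial DNA 10 rose (37%, near the share of all genes) and 3 fell (11.1%), with a median of 0.08. The packaging factor Tfam had a log2 fold change of 0.08 and did not pass (adjusted p = 0.55), while Fastkd2 (0.81) and Mterf4 (0.73) rose and the nuclease Mgme1 (-0.75) and the polymerase Polg (-0.32) fell.

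Regulators of mitochondrial biogenesis held the largest change of these lists, a fall. Of 10 such genes 2 rose and 4 fell (median -0.19). Over all genes tested 34.3% rose and 33.8% fell. The share of these 10 that fell was thus near the background, and the share that rose was below it. Ppargc1a, the coactivator PGC-1alpha, was at 0.172, 0.143 and 0.451 CPM in the KO libraries, against 8.81, 9.73 and 8.71 CPM in the WT libraries. Every KO library was far below the WT libraries (log2 fold change -5.17). Ppargc1a passed the filter of 0 log2 CPM through its WT libraries alone, so no p-value is given for it. It is counted among the 4 that fell. Its relative Ppargc1b averaged 1.05 ± 0.228 CPM in the KO line, against 3.56 ± 0.829 CPM in the WT line (-1.73, limma adjusted p = 0.00044). Gabpa, which binds the ETS letters, averaged 43.5 ± 3.17 CPM in the KO line, against 86.3 ± 2.27 CPM in the WT line (-0.99, adjusted p = 1.1e-05). Yy1 also fell (-0.23), the nuclear receptor Esrra (0.63) and Gabpb1 (0.29) rose, and Nrf1 was at 27.4 ± 0.896 CPM in the KO line, against 28.6 ± 3.88 CPM in the WT line (-0.06, adjusted p = 0.67).

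The citric acid cycle and pyruvate dehydrogenase, which deliver NADH and succinate to the chain, held more genes that rose than fell. Of 18 genes 12 rose (66.7%, against 34.3% of all genes tested) and 2 fell (11.1%, against 33.8%), with a median of 0.35. Dlat, a subunit of pyruvate dehydrogenase, averaged 103 ± 2.32 CPM in the KO line, against 45.1 ± 3.63 CPM in the WT line (1.20, limma adjusted p = 3.8e-06), and citrate synthase, Cs, 343 ± 6.12 CPM in the KO line, against 205 ± 6.46 CPM in the WT line (0.74). The NADP-dependent dehydrogenase Idh2 fell, to 60.8 ± 7.36 CPM in the KO line against 186 ± 14 CPM in the WT line (-1.62, adjusted p = 2.5e-06). Of 18 genes of protein import and mitochondrial mass 9 rose and 2 fell (median 0.20), among them the chaperonin Hspe1 (0.75) and the prohibitin Phb (0.65) on the higher side and Timm44 (-0.36) and the channel Vdac3 (-0.28) on the lower.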

How the data were processed

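The authors deposited a table of log2 CPM, one column per library. The submitters' processing notes name GRCm38, edgeR, featureCounts with Subread 1.6.4, STAR 2.7.3a and Trimmomatic 0.39. Annotation, strand setting and filter: not given in the sources used here. Whole reads were worked back from the steps of the deposited log2 values (all whole within 0.001), and CPM in the text is those reads without the prior, on the authors' library scale.

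Members and lists were chosen with earlier results of these data known. limma 3.58.1 (R 4.3.3; trended eBayes) was fitted to the deposited log2 values, KO minus WT, over 12616 genes above 0 log2 CPM in at least 3 libraries, with Benjamini-Hochberg adjustment and a threshold of 0.05. Simulated data were used to test it. Named members were all mitochondrial genes, isoform sets, Sdh genes, Cyc1, Cycs, the 3 strongest called per complex and direction, and those nearest 0; others (Ndufb1-ps, Ndufb3, Ndufs5, Ndufa12, Ndufaf2, Ndufaf5, Uqcrc1, Uqcrfs1, Atp5a1, Atp5b, Atp5mpl, Gabpa, Yy1, Nrf1, Tfam) were added after their values were seen.

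Transcript length is that of the transcript with the longest coding sequence in GENCODE M21. Near-identical copies (BLAST 2.17.0, at least 95% identity over at least 50% of the transcript) were found for 17 members. Same-numbered KO and WT libraries correlated at 0.101, 0.0811 and -0.0951, so numbers were not taken as pairs.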

Additional observations from a re-analysis of the deposited data

How the results depend on the processing

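The comparison was repeated under 16 other settings, which covered filters, eBayes without a trend, voom, pseudocounts, scalings, a replicate block and leaving out each library. In all of them 26 of the 36 members that rose, 4 of the 6 that fell and 38 of the 53 that did not pass kept their call, and the median over all genes stayed within 0.03 of 0.

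Leaving out 1 library gave 3803 to 4191 of 12616 genes tested higher and 3770 to 4137 lower. Of the members it gave 28 to 42 higher and 4 to 9 lower. For nuclear members this was 27 to 42 and 3 to 8, for mitochondrial ones 0 to 1 and 1 to 1, for complex I 10 to 17 and 1 to 3, for complex II 0 to 2 and 1 to 1, for complex III 4 to 5 and 0 to 0, for complex IV 6 to 8 and 0 to 1, for complex V 3 to 6 and 1 to 2, and for assembly factors 3 to 5 and 0 to 1. The share of reads in nuclear members, KO over WT, was 1.17 with 1.08 to 1.22 without 1 library, and that in mitochondrial members 1.03 with 1.02 to 1.05.

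Without the trend, 33 nuclear members were higher (4188 of 12616 genes tested), against 36 with it (4329 genes). Complex I then had 1 lower member, complex IV 0 and the assembly factors 1. Median centring gave 41 nuclear members higher (4452 genes), with 17 in complex I and 2 in complex II. Under it complex I had 1 lower member. The replicate block gave 34 nuclear members higher (4218 genes) and 3 lower (4177 genes). It gave complex I 1 lower member and complex IV 0, and the numbers did not pair the libraries.

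Among the members named in the text, changes of sign were near 0 and in genes that did not pass. Other members changed sign too: without KO replicate 3, nuclear members with a negative log2 fold change went from 15 to 22. Ndufs7 was at 0.01 under median centring, 0.02 without KO replicate 1, 0.04 without KO replicate 2 and 0.05 without WT replicate 2. Ndufb11 was at 0.04, 0.01, 0.00 and 0.01 without KO replicates 1 and 2 and WT replicates 1 and 2. Atp5j was at 0.02 without KO replicate 1 and 0.04 without KO replicate 2. Without KO replicate 3, mt-Nd1 was at 0.01 and Atp5md at -0.10. Over all settings that left out 1 library, mt-Nd1 reached down to -0.16, Atp5j to -0.17 and Ndufb11 to -0.12, and Atp5md up to 0.11. The cause was not tested. Groups of 3 limit the precision, and genes low in all libraries were not analysed here.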
